A study of Rattus norvegicus with 29 samples.

Results

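The neuronal cytoskeleton and growth proteins described here are the neurofilament subunits Nefl, Nefm, Nefh and Ina, the microtubule-associated proteins Map2, Map1b and Mapt, and the growth-associated proteins Gap43, Stmn2 and Basp1. Members were all probe sets whose single gene symbol in the platform annotation is 1 of these 10 genes, which gave 20 of the 8740 probe sets other than controls, for 9 of the 4736 genes with such a probe set. Stmn2 has none and was not analysed here. Values are log2 signals of hippocampal CA1 RNA of male Fischer rats, hybridised to single-colour arrays of the Affymetrix rat genome U34 set (array A), which carry several short probes, a probe set, for each transcript. The groups are 9 young arrays (4 months), 10 mid-aged arrays (14 months) and 10 aged arrays (24 months). Rats of all 3 ages had been trained in sequence on the tasks named SWM and OMT, with a training and testing sequence of 7 days and tissue taken 24 hours after it, so no age has an untrained group. Whether 1 array stands for 1 rat is not in the labels. So n counts arrays, and a p-value sets a difference only against the spread among these arrays.

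Neurofilaments are the intermediate filaments of neurons, built from a light, a middle and a heavy subunit together with alpha-internexin, and they fill axons and set their calibre. Microtubules in dendrites are bound and stabilised by MAP2, those in axons by tau, and MAP1B is abundant in growing neurites. GAP-43 and its functional relative BASP1 are membrane-bound proteins of growth cones and presynaptic endings that act on the actin skeleton, and stathmin-2 binds free tubulin in growing axons. In tissue made of many cell types, fewer cells of a type and less RNA per cell cannot be told apart.

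Detection calls of present covered between 35.6% and 46.5% of probe sets per array. Tested were the 3861 probe sets that were present on 9 or more of 29 arrays, among them 17 of the 20 member probe sets, for 8 genes. The tissue carried neuronal transcripts on every array, with the mean log2 signal of 7 of 9 neuronal marker genes between 12.14 and 13.00 in aged, and between 12.54 and 12.89 in young arrays. That mean differed by -0.053 between aged and young arrays (exact permutation test, two-sided, adjusted p = 0.804 over 22 tests). Markers of glia and blood moved with age in the same test. The mean of 5 of 6 interneuron markers differed by -0.020 between aged and young arrays (adjusted p = 0.811). It differed by -0.067 between mid-aged and young arrays (adjusted p = 0.612). The single markers moved unequally. Npy differed by -0.39 between mid-aged and young arrays (limma, adjusted p = 0.0370 over all 3861 probe sets) and was the only interneuron marker past 0.05. Between aged and young arrays Npy differed by -0.27 (limma, adjusted p = 0.134). Pvalb, the only 1 of the 5 with a positive difference there, differed by 0.27 (limma, adjusted p = 0.212). The mean of 4 of 8 microglial markers lay between 11.06 and 11.63 in aged and between 10.42 and 10.84 in young arrays, without overlap (difference 0.78, adjusted p = 0.000119), and between 10.61 and 11.41 in mid-aged arrays (difference from young 0.34, adjusted p = 0.00458). Of these 4, Cd74 was present on 8 aged, 3 mid-aged and 0 young arrays, so it was tested only through the older arrays. It had the largest difference between aged and young arrays, 1.63, which raises the mean. Aif1, C1qb and Ctss differed by 0.48, 0.62 and 0.39 (limma, adjusted p = 0.0314, 0.000100 and 0.00235 over all 3861 probe sets). The mean without Cd74 was not taken. The mean of 5 of 7 oligodendrocyte markers differed by 0.32 (adjusted p = 0.00262) and that of 7 of 8 astrocyte markers by 0.29 (adjusted p = 0.0305) between aged and young arrays. Hbb, the only tested marker of vessels and blood, differed by 1.30 (adjusted p = 0.000119), and Ttr, the only one of choroid plexus, by -0.16 (adjusted p = 0.811). The part of these lists in the member values was not tested. The signal columns carry names in 2 styles, and the shorter style marks 5 young, 4 mid-aged and 0 aged arrays, so values within a style are given where they bear on a member.

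No member probe set passed the threshold in any comparison of ages. In aged against young arrays, 0 of 17 passed an adjusted p of 0.05 (limma, Benjamini-Hochberg over all 3861 probe sets), where 1.66% of all tested probe sets did. At an unadjusted p under 0.05 there were 3 of 17, namely Gap43, 1 probe set of Ina and 1 of Mapt, where 14.2% of all tested probe sets passed that level. In mid-aged against young arrays 0 of 17 passed (0.414% of all tested), with 1 of 17 at the unadjusted level (11.2% of all tested), a probe set of Nefl. In aged against mid-aged arrays 0 of 17 passed (0.0518% of all tested), with 1 of 17 at the unadjusted level (5.18% of all tested), a probe set of Mapt. The F test over the 3 ages called 0 of 17 (1.32% of all tested), with 1 of 17 at the unadjusted level. The median log2 difference over the 17 probe sets was 0.029 in aged against young, beside -0.016 over all tested probe sets. It was 0.037 beside -0.018 in mid-aged against young, and -0.15 beside -0.00079 in aged against mid-aged. Over the brightest probe sets of the 8 genes, the median was -0.033 in aged against young and -0.053 in mid-aged against young. It was -0.064 in aged against mid-aged. The sign of the median against young arrays therefore depends on whether probe sets or genes are counted. These comparisons share arrays and are not independent.

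**Figure D1:**
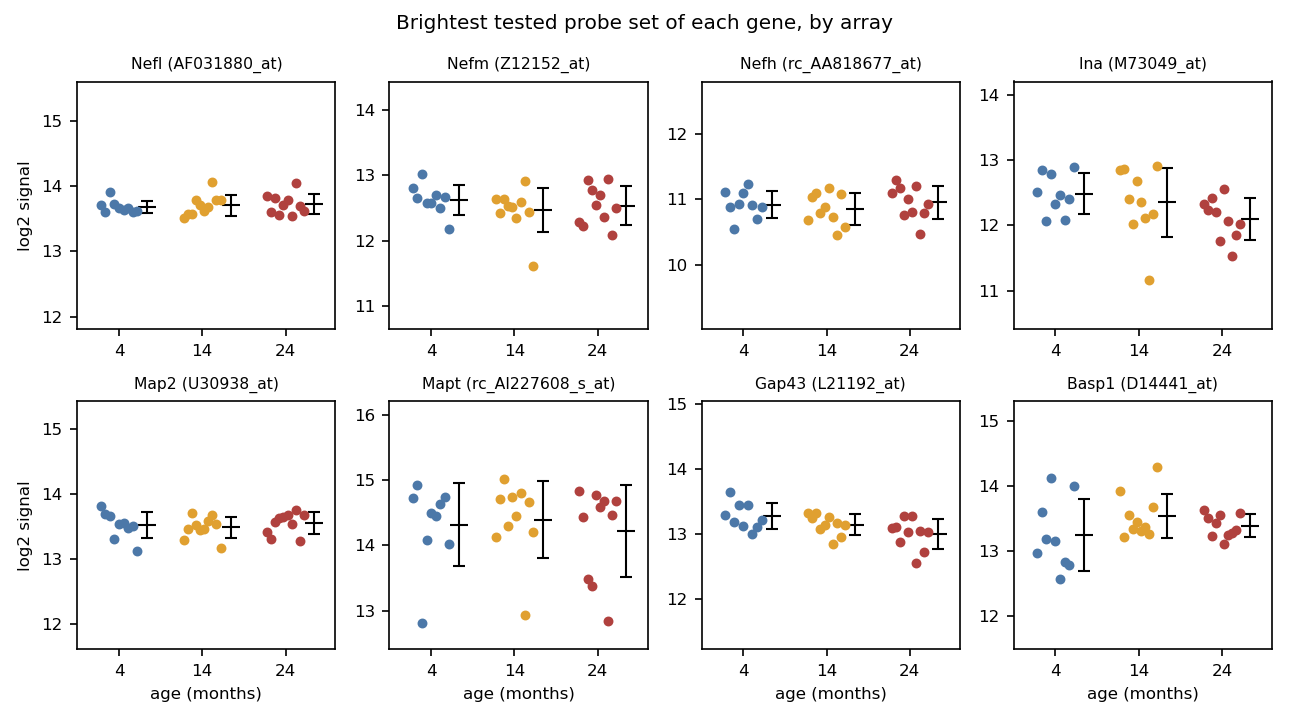
Log2 signal (vertical axis) of the brightest tested probe set of 8 genes on each array at 4, 14 and 24 months. Points are arrays, and the bar beside each group is its mean with the SD (n = 9 young, 10 mid-aged, 10 aged); every panel spans the same range of log2 units, and the ages overlap in each panel.

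Nefl, the light subunit on which neurofilament assembly depends, was the steadiest of the members by its brightest probe set, AF031880_at, built on the complete coding sequence. Its lowest, median and highest log2 signals were 13.60, 13.67 and 13.91 in young, 13.52, 13.70 and 14.06 in mid-aged, and 13.54, 13.70 and 14.04 in aged arrays. The 3 ranges lie over each other. The difference between aged and young arrays was 0.043 ± 0.074 (SE; 95% interval -0.11 to 0.19; adjusted p = 0.846, limma). The SD within ages was 0.14, at the 2.90th percentile of all tested probe sets, whose median is 0.27. A second Nefl probe set, M25638_s_at, built on a partial coding sequence, varied more, with an SD within ages of 0.60. Its lowest, median and highest log2 signals were 9.89, 11.65 and 12.08 in young arrays, 11.35, 12.15 and 12.64 in mid-aged arrays, and 10.24, 11.96 and 12.37 in aged arrays. The mid-aged arrays differed from the young by 0.57 ± 0.26 (SE; 95% interval 0.049 to 1.10; adjusted p = 0.404), with 6 of 10 above every young array, and the aged arrays by 0.23 ± 0.26 (adjusted p = 0.732). When each array was left out in turn the aged difference ran from 0.034, without young 9, to 0.39, without aged 4. The M25638_s_at signal was lower within ages where 2 ratios of RNA and labelling quality, explained below, were higher. Its r was -0.58 with the GAPDH ratio (rho = -0.50, permutation adjusted p = 0.00484 for r over 51 relations). With the beta-actin ratio r was -0.62 (rho = -0.53, permutation adjusted p = 0.00278). Without the 2 farthest arrays these were -0.34 and -0.39. The pair of Nefl probe sets correlated within ages at r = 0.35 (rho = 0.38, 29 arrays, permutation p = 0.0639, adjusted p = 0.114 over 16 pairs).

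Nefm, the middle subunit, had lowest, median and highest log2 signals of 12.08, 12.52 and 12.95 in aged arrays and 12.17, 12.65 and 13.03 in young arrays. The ranges overlap almost wholly, and the difference was -0.095 ± 0.13 (SE; 95% interval -0.37 to 0.18; adjusted p = 0.801). In mid-aged arrays the values were 11.61, 12.52 and 12.91, and 9 of 10 lay below the young median (difference -0.16 ± 0.13, adjusted p = 0.688).

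Nefh, the heavy subunit with a long phosphorylated tail, gave 10.47, 10.97 and 11.29 as its lowest, median and highest log2 signals in aged arrays and 10.54, 10.91 and 11.24 in young arrays by a probe set on a 3' end tag (rc_AA818677_at). Aged and young arrays overlap throughout, with a difference of 0.032 ± 0.11 (SE; 95% interval -0.19 to 0.26; adjusted p = 0.920). The other Nefh probe set, on the C-terminal coding sequence, was called present on 14 of 29 arrays and differed by 0.18 ± 0.17 (adjusted p = 0.693).

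Ina, which encodes alpha-internexin, had the largest difference among the brightest probe sets of the 8 genes. The probe set on its complete coding sequence (M73049_at) had lowest, median and highest log2 signals of 11.53, 12.14 and 12.56 in aged arrays and 12.07, 12.47 and 12.89 in young arrays. In 5 of 10 aged arrays the signal lay below every young array, and in 9 of 10 below the young median, while the other aged arrays overlap the young ones. The difference was -0.39 ± 0.18 (SE; 95% interval -0.75 to -0.032; unadjusted p = 0.0340, adjusted p = 0.304, limma), a fold of 0.762, and did not pass. Mid-aged arrays spanned 11.16 to 12.91 with a median of 12.38 and differed from young by -0.13 ± 0.18 (adjusted p = 0.822). The second Ina probe set, on a 3' end tag, differed by -0.14 ± 0.17 in aged against young arrays (adjusted p = 0.764), and 7 of 10 aged arrays lay above the young median there. The 2 probe sets correlated within ages at r = 0.52 (rho = 0.57, permutation p = 0.0035, adjusted p = 0.008; r = 0.55 without the 2 farthest arrays; r = 0.63 in the longer and 0.23 in the shorter column-name style). The 250 bases before the Ina start (chr1:255837879-255838128, plus strand, GRCr8, from RefSeq) are shown because Ina was the gene with the largest difference, a choice made after its values were seen. Capitals mark GGGCGG on either strand, the letters of a GC box.
Ina: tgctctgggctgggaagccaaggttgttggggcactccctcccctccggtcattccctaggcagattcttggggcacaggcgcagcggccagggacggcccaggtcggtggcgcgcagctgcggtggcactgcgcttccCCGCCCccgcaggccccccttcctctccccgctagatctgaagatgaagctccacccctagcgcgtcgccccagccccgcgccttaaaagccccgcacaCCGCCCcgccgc
The window holds the 6 letters at 2 places, starting 111 and 12 bases before the gene's start, and 70.8% of its bases are G or C, against a median of 51.2% over 33469 promoter windows of the same length.

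Within an array, the difference of log2 signals between a subunit and Nefl shows whether subunits moved unequally, and says nothing of their relative amounts. Ina minus Nefl had lowest, median and highest values of -2.51, -1.50 and -1.24 in aged arrays and -1.84, -1.20 and -0.72 in young arrays. All 10 aged arrays lay below the young median, and 3 below every young array. The group means differed by -0.43 (exact permutation test over 92378 groupings, two-sided, p = 0.0199, adjusted p = 0.159 over 8 tests), which did not pass. Within the longer column-name style, with 10 aged and 4 young arrays, the difference was -0.57 (exact permutation p = 0.0400). Nefm minus Nefl differed by -0.14 between aged and young arrays and by -0.19 between mid-aged and young arrays (exact permutation, adjusted p = 0.546 for both). Nefh minus Nefl differed by -0.011 (adjusted p = 0.943) and -0.097 (adjusted p = 0.772) in the same comparisons and the same test. With the mean of all tested probe sets of each gene, which brings in the second Nefl probe set, the mid-aged differences were -0.46 for Nefm minus Nefl (exact permutation p = 0.0365, adjusted p = 0.201) and -0.28 for Nefh minus Nefl (exact permutation p = 0.0502, adjusted p = 0.201), and the aged difference of Nefm minus Nefl was -0.23 (adjusted p = 0.437).

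**Figure D2:**
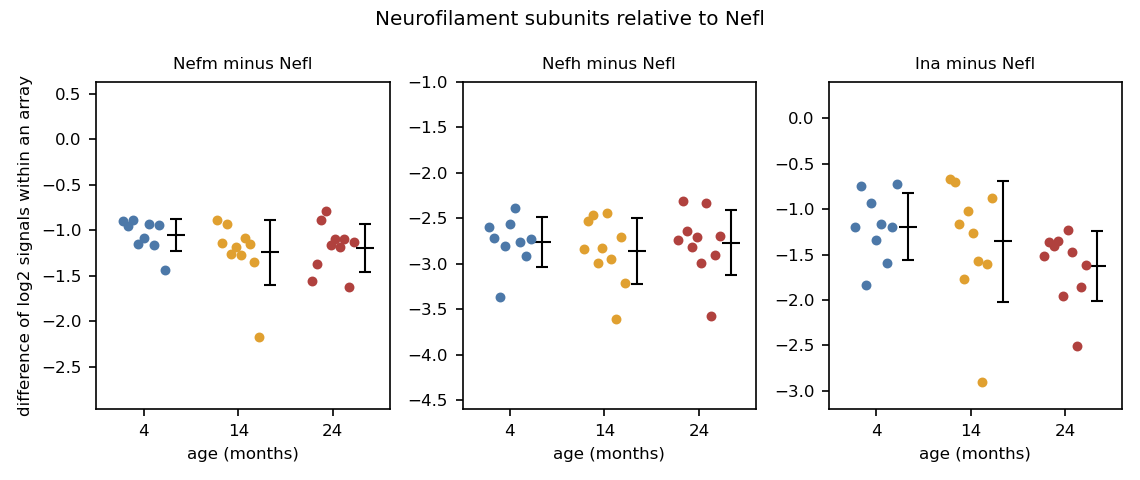
Difference of log2 signals within an array (vertical axis) between the brightest probe sets of Nefm, Nefh or Ina and that of Nefl at 4, 14 and 24 months. Points are arrays, bars the mean and SD (n = 9 young, 10 mid-aged, 10 aged); the aged Ina arrays sit between -2.51 and -1.24, all below the young median of -1.20.

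Map2 encodes the main microtubule-associated protein of dendrites, and 5 of its probe sets were tested. The brightest, U30938_at, is built on a 3' untranslated region entry and had lowest, median and highest log2 signals of 13.13, 13.54 and 13.82 in young arrays, 13.18, 13.49 and 13.71 in mid-aged arrays, and 13.27, 13.60 and 13.76 in aged arrays. The young range holds both others. The difference between aged and young arrays was 0.029 ± 0.087 (SE; 95% interval -0.15 to 0.21; adjusted p = 0.908, limma), and that between mid-aged and young arrays -0.035 ± 0.087 (adjusted p = 0.913). The other 4 stand on a coding sequence, the short isoform MAP2c, a 3' end tag and a partial high molecular weight form. These are names of the entries, and which isoforms the probes bind was not tested. Their aged and young arrays differed by between -0.23 and 0.31, with standard errors between 0.31 and 0.42, and none passed. Their 95% intervals were -1.07 to 0.62 for the coding sequence, -0.87 to 0.78 for MAP2c, -0.61 to 0.67 for the 3' end tag and -0.34 to 0.96 for the high molecular weight form. For the coding-sequence probe set, X53455cds_s_at, the lowest, median and highest log2 signals were 9.03, 11.53 and 12.43 in aged arrays and 9.32, 11.80 and 12.23 in young arrays, and the ranges overlap wholly.

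Within ages, the 4 other than the 3' untranslated region entry correlated with each other at r between 0.78 and 0.95 over 29 arrays (rho between 0.65 and 0.95, each with permutation adjusted p of at most 0.000613 over 16 pairs). In the 9 arrays of the shorter column-name style, the 3 pairs that involve the 3' end tag gave 0.0100, 0.065 and 0.26, so that part of the relation rests on the longer style. The 3' untranslated region entry correlated with these 4 at r between 0.041 and 0.20 (rho between 0.067 and 0.35, permutation adjusted p between 0.408 and 0.833 for r). Those values differed by column-name style, with r of 0.67 for MAP2c, 0.54 for the coding sequence, 0.13 for the 3' end tag and 0.69 for the high molecular weight form in the 9 arrays of the shorter style, against -0.014 to 0.066 in the 20 of the longer style. The SD within ages was 0.18 for the 3' untranslated region entry and between 0.73 and 0.97 for the other 4, which is at the 11.7th percentile of all tested probe sets for the first and between the 98.5th and 99.6th for the others.

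Signals near the 3' end over signals near the 5' end of a control transcript are a measure of RNA and labelling quality on these arrays. All 17 tested member probe sets were set against 3 such log2 ratios within ages, which makes 51 relations. The 4 Map2 probe sets correlated with the hexokinase ratio at r between -0.74 and -0.63 (rho between -0.63 and -0.50, permutation adjusted p for r between 0.00017 and 0.00248). Without the 2 farthest arrays, r was between -0.66 and -0.58. In the 20 arrays of the longer style it was between -0.79 and -0.69, and in the 9 of the shorter style between -0.13 and 0.18. The ratio ran from 0.91 to 1.63 in the shorter style, against 0.85 to 2.77 in the longer. With 9 arrays over this narrower range, whether the relation fails in the shorter style cannot be told. Against the GAPDH ratio, r of the 4 was between -0.69 and -0.44 (permutation adjusted p between 0.000595 and 0.0431), and rho between -0.58 and -0.24, past the threshold only for the 3' end tag (adjusted p = 0.00743). That r was between -0.69 and -0.59 in the longer style, but 0.50, 0.44 and -0.13 in the shorter style for MAP2c, the coding sequence and the high molecular weight form, and -0.68 for the 3' end tag. Against the beta-actin ratio, r was between -0.63 and -0.28 and rho between -0.50 and -0.16, again past the threshold by ranks only for the 3' end tag (adjusted p = 0.0259). There r was between -0.68 and -0.49 in the longer style, between -0.74 and 0.52 in the shorter style, and between -0.36 and 0.023 without the 2 farthest arrays. For the 3' untranslated region entry, r was -0.26 with hexokinase (rho = -0.11, permutation adjusted p = 0.278), 0.33 with GAPDH (rho = 0.33, adjusted p = 0.152) and 0.44 with beta-actin (rho = 0.51, adjusted p = 0.0431).

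**Figure D3:**
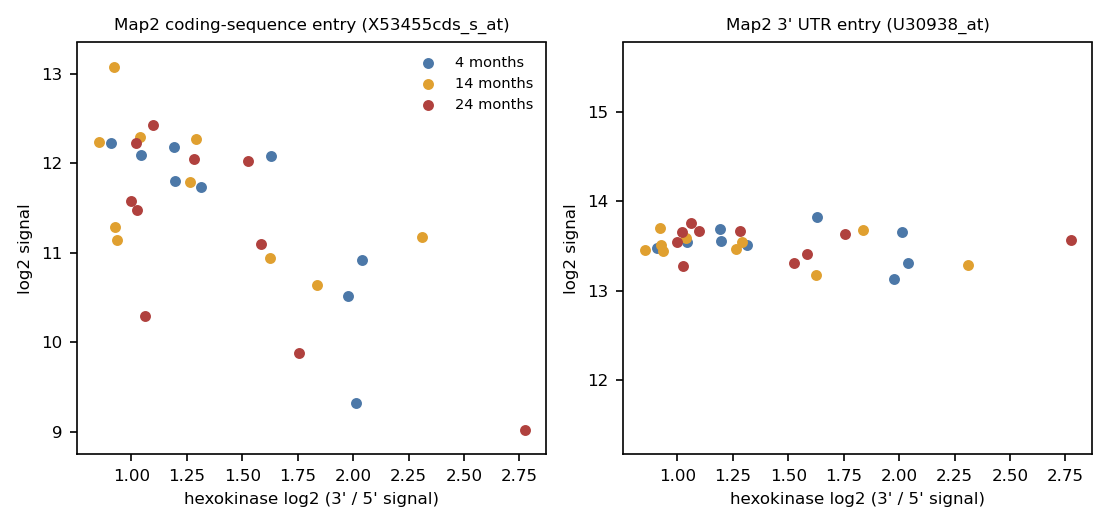
Log2 signal of a Map2 coding-sequence probe set (left) and of the Map2 3' untranslated region probe set (right) against the log2 ratio of hexokinase 3' over 5' signal, on vertical axes of equal span. Points are the 29 arrays coloured by age. At the left, signals tend to be lower where the ratio is higher (r = -0.72 within ages), with exceptions. Aged 8 has a signal of 10.29 at a ratio of 1.06, and mid-aged 1 a signal of 11.18 at 2.31. At the right the points stay between 13.13 and 13.82.

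Mapt encodes tau, the microtubule-associated protein best known from axons and from the tangles of Alzheimer's disease, and its 3 probe sets gave different pictures. The probe set on the tau mRNA, X79321_at, had lowest, median and highest log2 signals of 12.98, 13.14 and 13.74 in young arrays, 12.84, 13.21 and 13.78 in mid-aged arrays, and 13.28, 13.47 and 13.99 in aged arrays. All 10 aged arrays lay above the young median, 2 of them above every young array. The difference between aged and young arrays was 0.27 ± 0.12 (SE; 95% interval 0.024 to 0.52; unadjusted p = 0.0323, adjusted p = 0.296), a fold of 1.21, and did not pass. The 2 probe sets on 3' end tags differed by -0.10 ± 0.28 (adjusted p = 0.900) and -0.13 ± 0.12 (adjusted p = 0.673). The first of these was the brightest Mapt probe set, with lowest, median and highest log2 signals of 12.84, 14.53 and 14.83 in aged arrays and 12.80, 14.50 and 14.92 in young arrays.

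The X79321_at signal of Mapt correlated within ages with the GAPDH ratio at r = 0.75 (rho = 0.67, permutation adjusted p = 0.00017 for r; 0.69 without the 2 farthest arrays, 0.79 in the longer and 0.57 in the shorter style) and with the beta-actin ratio at r = 0.74 (rho = 0.75). With the GAPDH ratio in the fit, its difference between aged and young arrays was 0.20 (adjusted p = 0.235), and within the longer style alone 0.17 (adjusted p = 0.739). With the hexokinase ratio in the fit the Mapt difference was 0.28 (limma, adjusted p = 0.214). The GAPDH ratio itself differed by 0.10 between aged and young arrays (exact permutation adjusted p = 0.681). The beta-actin ratio differed the other way, by -0.19 (exact permutation adjusted p = 0.612). The part of these ratios in the Mapt value beyond these fits was not tested. The brightest Mapt probe set and X79321_at correlated at r = -0.43 within ages (permutation adjusted p = 0.0365), but rho was -0.15 and r was -0.13 without the 2 farthest arrays, so the relation rests on those arrays. Mapt minus Map2, from their brightest probe sets, differed by -0.13 between aged and young arrays (exact permutation adjusted p = 0.776) and by 0.11 between mid-aged and young arrays (adjusted p = 0.772).

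Map1b, the microtubule-associated protein of growing neurites, was not measurable here. Its 3 probe sets were called present on 5, 0 and 4 of the 29 arrays, under the minimum of 9, and none was tested. The probe set present on 5 arrays had a highest log2 signal of 8.80 in young, 9.25 in mid-aged and 9.75 in aged arrays, and 1 young, 1 mid-aged and 4 aged arrays lay at the floor of 7.33 below which signals were set to 1 value. For the probe set present on 0 arrays, 8 young, 5 mid-aged and 3 aged arrays lay at the floor. For the one present on 4, there were 4 young, 3 mid-aged and 5 aged. These low signals say nothing of whether Map1b is expressed in CA1.

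Gap43 had the smallest p of all members in aged against young arrays. GAP-43 is a substrate of protein kinase C in growth cones and presynaptic endings. Its lowest, median and highest log2 signals were 13.01, 13.22 and 13.64 in young arrays, 12.85, 13.15 and 13.33 in mid-aged arrays, and 12.57, 13.05 and 13.28 in aged arrays. Of the aged arrays, 3 of 10 lay below every young array and 8 of 10 below the young median, while the rest overlap. Means were 13.00 ± 0.23 in aged and 13.28 ± 0.20 in young arrays (SD, n = 10 and 9). The difference was -0.27 ± 0.094 (SE; 95% interval -0.46 to -0.080; unadjusted p = 0.00707, adjusted p = 0.153, limma), a fold of 0.829, and did not pass. With each array weighted by its quality in limma it was -0.31 with an adjusted p of 0.0339, a setting under which 326 of all tested probe sets passed in place of 64. The mid-aged arrays differed from the young by -0.13 ± 0.094 (95% interval -0.32 to 0.065; adjusted p = 0.655). The Gap43 difference was -0.29 with the GAPDH ratio in the fit (adjusted p = 0.0938), -0.27 with the hexokinase ratio (adjusted p = 0.147) and -0.37 within the longer column-name style (adjusted p = 0.307). Its correlations with the 3 quality ratios within ages were between 0.18 and 0.35 (rho between 0.20 and 0.29, permutation adjusted p for r between 0.120 and 0.446).

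Basp1, also called NAP-22 or CAP-23, had lowest, median and highest log2 signals of 12.57, 13.15 and 14.13 in young arrays, 13.21, 13.41 and 14.28 in mid-aged arrays, and 13.11, 13.38 and 13.63 in aged arrays. The young arrays spread widest and hold all aged values within their range. The difference was 0.14 ± 0.17 between aged and young arrays (SE; 95% interval -0.20 to 0.48; adjusted p = 0.748). Between mid-aged and young arrays it was 0.29 ± 0.17 (95% interval -0.045 to 0.63; adjusted p = 0.530), with 10 of 10 mid-aged arrays above the young median. In the longer column-name style alone the aged difference was -0.33 (adjusted p = 0.533), and with array weights 0.31 (adjusted p = 0.189), so its sign and size depend on which arrays are used and how they are weighted. The 250 bases before the Basp1 start (chr2:77594298-77594547, minus strand, GRCr8, from RefSeq) are shown beside those of Ina because both windows hold GGGCGG, in capitals.
Basp1: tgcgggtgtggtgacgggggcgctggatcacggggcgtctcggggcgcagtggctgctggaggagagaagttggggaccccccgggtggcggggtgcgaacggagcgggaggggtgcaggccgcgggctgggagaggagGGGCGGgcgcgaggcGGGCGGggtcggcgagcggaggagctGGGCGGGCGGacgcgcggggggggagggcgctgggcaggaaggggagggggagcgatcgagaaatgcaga
It holds the letters at 4 places, starting 111, 96, 70 and 66 bases before the gene's start, with overlap between the last 2, and 76.8% of its bases are G or C. Of all promoter windows, 30.5% hold GGGCGG on either strand. The RefSeq table also holds Map2 and Map1b. TATAAA, in 12.9% of all windows, occurs once among the 4 windows, 48 bases before the start of Map1b. TGACGTCA (1.59% of all windows) and CCAAT (34.02%) occur in none of the 4, which says only that these letters are not in these windows. Nefl, Nefm, Nefh, Mapt, Gap43 and Stmn2 were not matched.

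**Figure D4:**
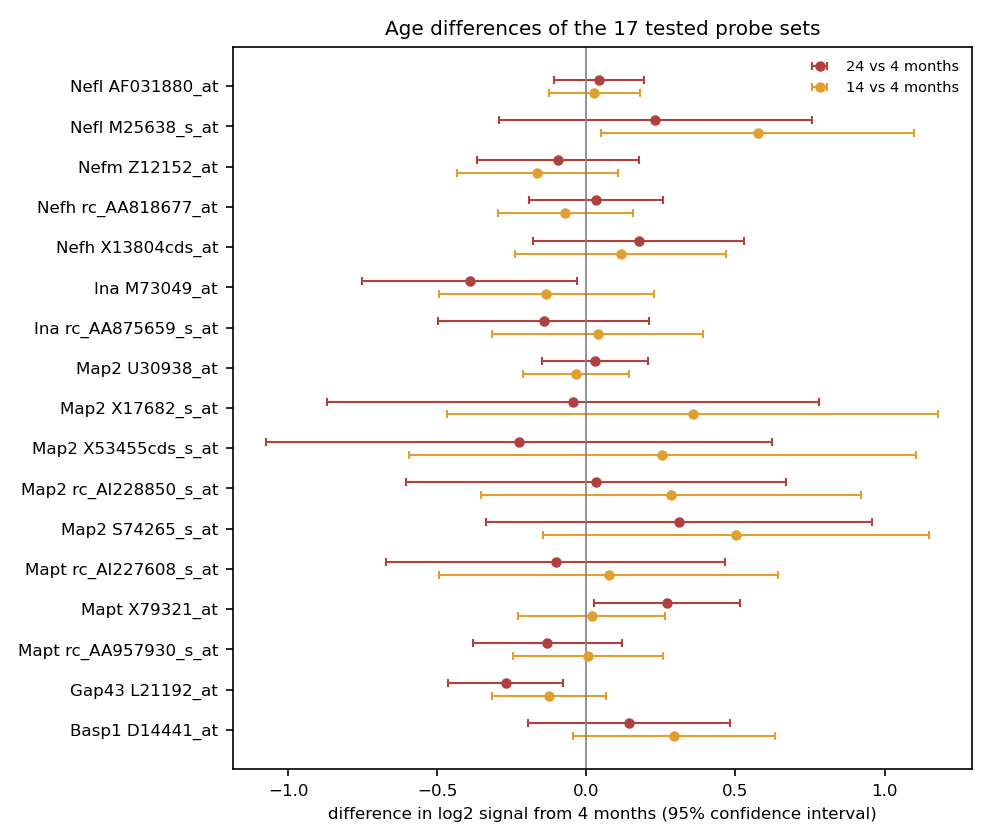
Difference in log2 signal (horizontal axis) of the 17 tested member probe sets between 24 and 4 months (upper, red) and between 14 and 4 months (lower, yellow). Points are limma estimates and bars 95% intervals, not adjusted for the number of probe sets; in 24 against 4 months the intervals of Gap43, 1 Ina and 1 Mapt probe set leave out 0, and the widest interval, that of Map2 X53455cds_s_at, runs from -1.07 to 0.62.

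Over the 28 pairs of the 8 genes' brightest probe sets, the median Pearson correlation within ages was -0.062 over 29 arrays. Past an adjusted p of 0.05 by permutation were 9 of 28, of which 2 were positive and 7 negative. By ranks 1 of 28 passed, Nefm with Map2, so none of the 7 negative relations holds by both measures. Nefm and Map2 correlated highest, at r = 0.76 (rho = 0.74, permutation adjusted p = 0.00028; 0.69 without the 2 farthest arrays, 0.78 in the longer and 0.81 in the shorter style). Nefm also correlated with the beta-actin ratio (r = 0.61, rho = 0.70, permutation adjusted p = 0.00278), as Map2's brightest probe set did. Nefl and Mapt correlated lowest, at r = -0.63 (permutation adjusted p = 0.00541), with rho = -0.33. Without the 2 farthest arrays r was -0.34, so its size over 29 arrays depends in part on those arrays. Within a style, r was -0.61 in the longer and -0.67 in the shorter. Of the 51 relations between members and quality ratios, 19 passed, which were 8 of 17 for GAPDH, 5 of 17 for hexokinase and 6 of 17 for beta-actin. By ranks 14 of 51 passed, with 4, 5 and 5 of 17 for the same 3 ratios.

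**Figure D5:**
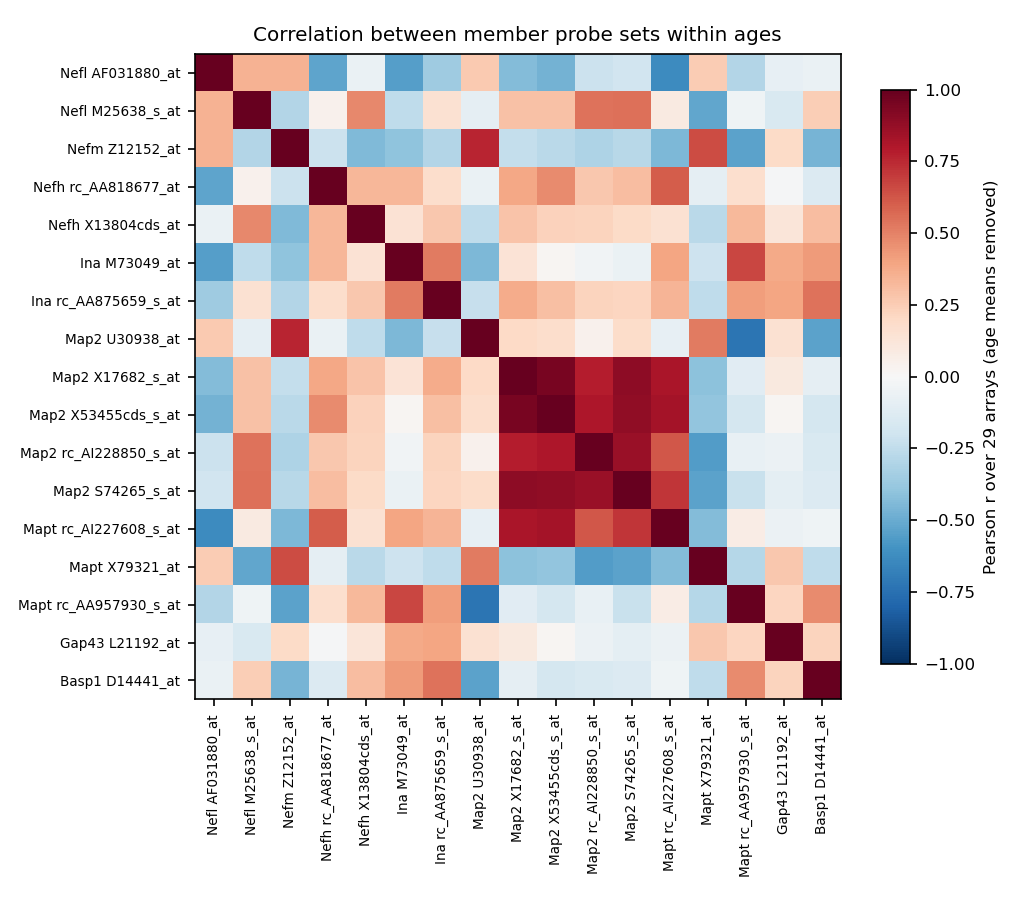
Pearson correlation (colour) between the 17 tested member probe sets over 29 arrays after each age's mean was subtracted. The 4 Map2 probe sets other than U30938_at form the dark red block with r between 0.78 and 0.95, and U30938_at has r between 0.041 and 0.20 with them over all 29 arrays, and between 0.13 and 0.69 in the 9 arrays of the shorter column-name style.

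Other genes of the neuronal skeleton were read from 6 lists, and 0 of 53 tested genes passed the threshold in any pair of ages (limma). Of all tested probe sets, 1.66% passed in aged against young, 0.414% in mid-aged against young and 0.0518% in aged against mid-aged arrays. At an unadjusted p under 0.05 there were 4 of 53 in aged against young (14.2% of all tested probe sets), 8 of 53 in mid-aged against young (11.2%) and 3 of 53 in aged against mid-aged arrays (5.18%). The values that follow are differences of log2 signal between aged and young arrays. Among the tubulins, the building blocks of microtubules, 0 of 5 passed, with Tubb5 at -0.18 (adjusted p = 0.303) and Tuba4a at -0.17 (adjusted p = 0.450). Among microtubule regulators 0 of 13 passed, with Pafah1b1, a partner of dynein, at 0.41 (adjusted p = 0.190) and Stmn1, the ubiquitous relative of Stmn2, at 0.23 (adjusted p = 0.223). Among motors 0 of 8 passed, with the kinesin light chain Klc1 at -0.17 (adjusted p = 0.516) and the dynein light chain Dynlt1 at -0.15 (adjusted p = 0.622). Of the actin and spectrin skeleton 0 of 14 passed, with the actin-binding Pfn1 at -0.21 (adjusted p = 0.360) and the spectrin Sptan1 at 0.14 (adjusted p = 0.564). Of growth and adhesion genes 0 of 11 passed, with Crmp1, a collapsin response mediator, at -0.13 (adjusted p = 0.368) and the adhesion molecule Cntn1 at 0.44 (adjusted p = 0.516). Of other intermediate filaments 0 of 2 passed, with Vim, the vimentin of glia and vessels, at 0.40 (adjusted p = 0.140) and Nes at -0.12 (adjusted p = 0.713).

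The genes most like the mean of the members were those whose log2 signal correlated highest, within ages over 29 arrays, with the mean of the 8 members' brightest probe sets, among 2399 other genes. Signals were averaged without scaling to equal spread, so the probe sets that vary most weigh most. The SD within ages was 0.65 for that of Mapt and 0.14 for that of Nefl. The median correlation between the 8 was -0.062, so likeness to their mean is not likeness to each member. They were Ptp4a2 at r = 0.83, Gnao1, Gda and Ugcg at 0.79, and Npepps at 0.79. These values describe a likeness chosen for its size, and each pair of values shares an array and its scaling.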

How the data were processed

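RNA of hippocampal CA1 tissue was measured on 29 arrays, grouped by the sample titles. The authors deposited an intensity (signal) and a detection call for each of 8799 probe sets per array, per the file headers; the software version and the genome build are not given in the sources used here. A deposited table of the whole series with intensities from -39359 to 70317, whose scale, centring and making are not given in the sources used here, served as an alternative. One further signal column in an array file (1 in all) was not used.

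After removal of 59 control probe sets, arrays were scaled to a common trimmed mean (2% off each end), and signals were raised to a floor of 160.8, the median of absent values, before log2. A probe set was tested if present on 9 or more of 29 arrays. Gene names came from the platform annotation.

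One limma 3.58.1 fit (lmFit and eBayes, R 4.3.3) held all 3 ages, with two-sided p-values adjusted by Benjamini-Hochberg over 3861 probe sets and a threshold of 0.05. Exact permutation tests ran over all groupings, and correlations of values with age means subtracted over 100000 permutations, in Python 3.11.15 with numpy 2.4.6 and scipy 1.17.1; figures used matplotlib 3.10.9. Code was tested on simulated data. A gene is represented by its tested probe set with the highest mean. All member probe sets are named. Named beside them are the 2 genes of smallest p in aged against young of each related list. The 5 genes most like the mean of the members are named too. The precision is limited by the number of arrays.

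Members and lists were chosen with earlier results of these data known. The correlations within ages and with quality ratios were added after a correlation matrix of members, ratios and marker means had been viewed. Alternatives covered scaling, the deposited table, filter, floor, intensity trend, array weights, replicate block, column-name style, quality covariates, fits of 2 ages, and arrays left out. The hexokinase covariate and the fit of the shorter style alone were added after seeing the data.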

Additional observations from a re-analysis of the deposited data

Results flagged for a closer look

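In 9 of 51 groups of member log2 signals, 1 array lay far from the others of its age, where chance gives about 1 in 20 groups. Mid-aged 8 was the highest for Nefl AF031880_at at 14.06 (next 13.79) and the lowest for Ina M73049_at at 11.16 (next 12.02) and for the brightest Mapt probe set at 12.94 (next 14.13). Young 4 was the highest for Nefl AF031880_at at 13.91 (next 13.73) and the lowest for the MAP2c probe set of Map2 at 8.93 (next 10.81) and for the brightest Mapt probe set at 12.80 (next 14.03). Both arrays are among the 6 least like the rest. Young 9 was the lowest for Nefl M25638_s_at at 9.89 (next 11.28), mid-aged 10 the lowest for Nefm at 11.61 (next 12.34), and young 5 the highest for the less bright 3' end tag of Mapt at 13.70 (next 13.28).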

How the results depend on the processing

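The count of 0 member probe sets past the threshold held under every setting run for the 3 pairs of ages, except with array weights in aged against young, where it was 1 (Gap43). Leaving out each array in turn gave 0 in each pair. Of the 34 member values against young arrays, 13 kept their direction under all settings; of 1579 alternative values, 1 passed. For aged against mid-aged, whose member values are given above as counts, 29 of 781 alternative values changed sign, in 9 of 17 probe sets, and 0 passed (lowest adjusted p = 0.462). The replicate number as a block gave 0 member probe sets in each pair. Of all probe sets it gave 77, 13 and 2 in aged against young, mid-aged against young and aged against mid-aged. Over 28 pairs of arrays with the same number, the correlation of deviations ran from -0.20 to 0.58 (median 0.089), with 13 over 0.1. Without such values for arrays of different numbers, these do not show whether the numbers pair the samples. Of all probe sets, 64 passed in aged against young, and 326 with array weights, 16 in the longer style alone, 98 with the GAPDH ratio as covariate, 131 without the 6 arrays that correlate least with the others, and 52 to 84 when each array was left out. In mid-aged against young 16 passed, and 8 from the deposited table, 87 with array weights, 0 in the longer style alone, 63 without the 6 arrays, and 8 to 22 when each array was left out. In aged against mid-aged 2 passed, and 0 from the deposited table, with no filter, with the GAPDH ratio, without the 6 arrays and with only the 2 ages fitted, and 0 to 4 when each array was left out. Nefh minus Nefl in aged against young was 0.015 after quantile normalization, and Mapt minus Map2 in mid-aged against young was -0.24 with the mean of all tested probe sets of each gene. The cause of these changes was not tested. The sign of the log2 difference, aged against young, turned as follows. With the floor raised to the 75th percentile it was -0.00086 for Nefh X13804cds_at. With array weights it was 0.0018 for Ina rc_AA875659_s_at, -0.0044 for Map2 U30938_at, 0.15 for Map2 X17682_s_at, 0.014 for Map2 X53455cds_s_at, 0.066 for Mapt rc_AI227608_s_at. From the deposited table it was -0.039 for Map2 U30938_at. With the replicate block it was 0.0025 for Map2 X17682_s_at. With column-name style as a term it was 0.31 for Map2 X17682_s_at, 0.18 for Map2 X53455cds_s_at, 0.21 for Mapt rc_AI227608_s_at, -0.16 for Basp1 D14441_at. In the longer style alone it was 0.51 for Map2 X17682_s_at, 0.47 for Map2 X53455cds_s_at, 0.26 for Mapt rc_AI227608_s_at, -0.33 for Basp1 D14441_at. With the GAPDH ratio as covariate it was 0.11 for Map2 X17682_s_at, 0.021 for Mapt rc_AI227608_s_at. Without the 6 arrays it was 0.15 for Map2 X17682_s_at, 0.14 for Map2 X53455cds_s_at, 0.13 for Mapt rc_AI227608_s_at. With the hexokinase ratio as covariate (added after seeing the data) it was -0.038 for Map2 rc_AI228850_s_at. The sign of the log2 difference, mid-aged against young, turned as follows. From the deposited table it was -0.052 for Nefl AF031880_at, 0.069 for Nefh rc_AA818677_at, -0.081 for Ina rc_AA875659_s_at, -0.042 for Mapt X79321_at, -0.17 for Mapt rc_AA957930_s_at. With the floor raised to the 75th percentile it was -0.022 for Nefh X13804cds_at. In the shorter style alone (added after seeing the data) it was -0.0060 for Nefh X13804cds_at, 0.14 for Ina M73049_at, -0.16 for Map2 X53455cds_s_at, -0.062 for Map2 rc_AI228850_s_at. With column-name style as a term it was -0.0058 for Ina rc_AA875659_s_at, -0.013 for Mapt rc_AA957930_s_at. In the longer style alone it was -0.099 for Ina rc_AA875659_s_at, 0.0088 for Map2 U30938_at, -0.12 for Mapt X79321_at, -0.054 for Mapt rc_AA957930_s_at, -0.084 for Basp1 D14441_at. Without the 6 arrays it was -0.064 for Ina rc_AA875659_s_at, -0.052 for Mapt rc_AA957930_s_at. With the GAPDH ratio as covariate it was -0.034 for Mapt rc_AI227608_s_at, -0.010 for Mapt rc_AA957930_s_at. With the hexokinase ratio as covariate (added after seeing the data) it was -0.052 for Mapt rc_AI227608_s_at. With array weights it was -0.00081 for Mapt rc_AA957930_s_at. With the replicate block it was -0.026 for Mapt rc_AA957930_s_at. When each array was left out in turn, these values crossed 0: -0.023 to 0.11 for Ina rc_AA875659_s_at (mid-aged against young), -0.020 to 0.066 for Map2 U30938_at (aged against young), -0.084 to 0.0026 for Map2 U30938_at (mid-aged against young), -0.36 to 0.15 for Map2 X17682_s_at (aged against young), -0.49 to 0.017 for Map2 X53455cds_s_at (aged against young), -0.0094 to 0.37 for Map2 X53455cds_s_at (mid-aged against young), -0.15 to 0.27 for Map2 rc_AI228850_s_at (aged against young), -0.038 to 0.077 for Mapt X79321_at (mid-aged against young), -0.057 to 0.071 for Mapt rc_AA957930_s_at (mid-aged against young), -0.29 to 0.049 for Mapt rc_AI227608_s_at (aged against young), -0.11 to 0.24 for Mapt rc_AI227608_s_at (mid-aged against young), -0.020 to 0.18 for Nefh X13804cds_at (mid-aged against young), -0.015 to 0.085 for Nefh rc_AA818677_at (aged against young), -0.013 to 0.055 for Nefl AF031880_at (mid-aged against young).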
